A study of Mus musculus with 4 samples.

Results

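The genes described here are 10 hypoxia-inducible genes, taken by symbol from the 32286 features counted in nuclei of the mouse brain: Hif1a, Epas1, Egln1, Egln3, Bnip3l, Pfkfb4, P4ha1, Mxi1, Pgk1 and Ldha. Each symbol matched 1 feature. The 4 libraries hold RNA of nuclei isolated from hemispheres that had been snap frozen, taken from mice of the C57BL/6 strain at postnatal day 14. The 2 libraries labelled Ago2 KO came from mice with Slc17a6-Cre and both Ago2 alleles floxed (Ago2 flox/flox). The 2 libraries labelled Ago2 WT came from mice with Slc17a6-Cre and the normal alleles (Ago2 wt/wt), so that every library carried the Cre driver and no treatment is named. Slc17a6 encodes the vesicular glutamate transporter VGLUT2, whose promoter is meant to direct the Cre recombinase to VGLUT2 neurons. Which cells had recombined was not tested here. Ago2 encodes an Argonaute protein that carries miRNAs to their targets. The sources used here do not say whether both libraries of a genotype are from different mice, so p-values reflect only how far these libraries differ, which may be technical. KO and WT stand for these labels below.

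Cells answer a lack of oxygen through the hypoxia-inducible factors, in which an oxygen-sensitive alpha subunit pairs with a stable partner, ARNT. When oxygen is present, prolyl hydroxylases mark the alpha subunit for destruction through the von Hippel-Lindau protein; when it is scarce the subunit persists, enters the nucleus and binds short hypoxia response elements in DNA. Much of the control therefore acts on protein, which these counts do not show, while the RNA of the targets is what the factors change. Hif1a and Epas1 (HIF-2alpha) encode alpha subunits, and Egln1 and Egln3 encode prolyl hydroxylases that are themselves induced. Pgk1 and Ldha encode glycolytic enzymes, Pfkfb4 encodes an enzyme that sets the level of a regulator of glycolysis, P4ha1 a collagen prolyl hydroxylase, Bnip3l (NIX) a receptor for the removal of mitochondria, and Mxi1 a repressor that opposes MYC.

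On build GRCm38 (GENCODE M21 annotation) the genes lie on different chromosomes apart from 1 pair: Hif1a at chr12:73901375-73947530 and Egln3 at chr12:54178981-54203860, Epas1 at chr17:86753700-86833410, Egln1 at chr8:124908587-124949324 and Bnip3l at chr14:66985239-67008877. Pfkfb4 lies at chr9:108991778-109032228, P4ha1 at chr10:59323296-59373304, Mxi1 at chr19:53310518-53375810, Pgk1 at chrX:106187100-106203699 and Ldha at chr7:46841475-46855627.

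The promoters of 8 of the 10 genes were in the RefSeq table of build GRCm38.p6. Each window ran from 250 bases before to 50 bases after a start of transcription. The windows were searched on both strands for the core of the hypoxia response element, ACGTG, and for its variant GCGTG. Ldha had 2 windows, the second without ACGTG, and Mxi1 had 3, the first without it. Counting any window of a gene, at least 1 ACGTG was found for 7 of the 8 genes, Pfkfb4 being the exception, against 21.8% of all 27025 genes with a window. GCGTG was found for 4 of the 8 genes (Ldha, Egln1, Pfkfb4 and P4ha1), against 35.2% of all genes. Of 52 other genes of the hypoxia pathway, 30 held ACGTG (57.7%) and 38 held GCGTG (73.1%). Windows of 4 members with different roles are given because they show how differently the element is placed. The glycolytic gene Pgk1 has a pair upstream of the middle of the window, and the glycolytic gene Ldha has several in its first window. The matrix gene P4ha1 has 1 close to the start, and the oxygen sensor Egln3 has 1 far upstream. Capitals mark both motifs and their reverse complements, and each window is printed 5′ to 3′ on the strand of the gene. The sequences are RefSeq's. Pgk1 is chrX:106186850-106187149 on the plus strand, Ldha chr7:46845554-46845853 plus, P4ha1 chr10:59323046-59323345 plus and Egln3 chr12:54203825-54204124 minus.
Pgk1: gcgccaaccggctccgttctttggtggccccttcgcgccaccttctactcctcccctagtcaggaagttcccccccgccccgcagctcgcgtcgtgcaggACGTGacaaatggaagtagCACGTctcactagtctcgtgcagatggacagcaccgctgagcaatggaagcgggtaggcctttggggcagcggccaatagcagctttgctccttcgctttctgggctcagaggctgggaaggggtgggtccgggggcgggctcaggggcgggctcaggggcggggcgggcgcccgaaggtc
Ldha: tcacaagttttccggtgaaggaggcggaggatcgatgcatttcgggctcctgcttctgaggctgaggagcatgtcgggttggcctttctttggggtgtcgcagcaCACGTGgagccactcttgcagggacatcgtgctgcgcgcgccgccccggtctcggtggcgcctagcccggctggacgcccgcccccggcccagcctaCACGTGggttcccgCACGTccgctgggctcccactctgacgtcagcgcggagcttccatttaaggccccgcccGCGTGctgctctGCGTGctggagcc
P4ha1: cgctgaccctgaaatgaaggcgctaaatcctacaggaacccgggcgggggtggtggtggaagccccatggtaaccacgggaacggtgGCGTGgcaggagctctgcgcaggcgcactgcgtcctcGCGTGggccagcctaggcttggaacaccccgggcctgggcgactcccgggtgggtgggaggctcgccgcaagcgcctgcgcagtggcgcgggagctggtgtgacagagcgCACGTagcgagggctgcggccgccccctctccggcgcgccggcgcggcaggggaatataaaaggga
Egln3: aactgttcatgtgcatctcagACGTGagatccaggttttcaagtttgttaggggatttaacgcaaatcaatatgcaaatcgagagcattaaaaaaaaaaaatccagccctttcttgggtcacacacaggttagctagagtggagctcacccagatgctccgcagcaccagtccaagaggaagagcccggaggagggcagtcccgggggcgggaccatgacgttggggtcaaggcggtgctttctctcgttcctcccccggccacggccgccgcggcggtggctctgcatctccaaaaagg
In Pgk1 the matches began at -150 and -131 relative to the start of transcription. In Ldha 5 matches of ACGTG lay at 3 places, because each CACGTG is read on both strands, and 2 matches of GCGTG lay after the start, at 26 and 38. The match in P4ha1 began at -16 and that in Egln3 at -229. A match is a description of the letters in these windows and does not show binding, and base composition was not matched between the members and all genes.

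The files held 17802 barcodes, with 10845009 and 11439733 UMIs in KO replicates 1 and 2 and 13107920 and 29317266 UMIs in WT replicates 1 and 2. After filtering, 3226 and 3174 KO nuclei and 3255 and 5856 WT nuclei remained, with medians of 2314 to 3093 UMIs, and pairs of libraries shared 3 to 10 barcodes. Nuclei were clustered without the members, and clusters were named astrocyte-like, endothelial-like and so on from marker genes (plain names are used from here), while unnamed clusters kept 33.2% to 42.3% of a library. The series' design text speaks of cortex and the protocol of hemispheres, and 2829 nuclei carried markers of cerebellar granule neurons. The ribosomal protein share of UMIs was lower in both KO libraries than in both WT libraries in 9 of 9 classes compared, and Mbp, a myelin RNA, in 7 of 9. Ago2 in glutamatergic nuclei was at 106 and 101 CPM in KO libraries, against 74.2 and 78.3 CPM in WT libraries. Which exons are floxed is not given, and reads at the 3′ end of the gene can lie outside them, so these values check nothing about the deletion, and each genotype is taken from its label.

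Levels are UMI counts summed over the nuclei of a class in a library and scaled to CPM, the counts relative to the total of that class in that library, and the 12 classes with nuclei in every library are compared by their mean and range over the 4 libraries. Epas1 was highest in endothelial and mural nuclei, while Hif1a was found in every class at levels that spread far less. Epas1 averaged 466 CPM (range 300.3 to 719) in endothelial nuclei and 317 CPM (range 299 to 336) in mural nuclei, which wrap the vessel. Next came astrocytes at 132 CPM (range 107 to 154) and the choroid plexus at 102 CPM (range 78.3 to 139). The ranges of endothelial and mural nuclei overlapped each other and lay above those of all other classes. Oligodendrocyte precursors (OPC) followed at 59.1 CPM (range 39.4 to 82.3) and fibroblasts at 57.4 CPM (range 37.3 to 82.6). In neurons Epas1 was low. It averaged 10.2 CPM (range 6.07 to 11.9) in cerebellar granule neurons, from 70 UMIs. In glutamatergic nuclei it averaged 4.71 CPM (range 3.00 to 8.50), from 57 UMIs. Among these neurons only the GABAergic value was close to the lower limit of these counts. It was 3.24 CPM (range 1.45 to 4.73), and the 4 libraries held 15 UMIs in all. Between the endothelial and the GABAergic mean lay a factor of 144.0.

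Hif1a averaged 110.2 CPM (range 97.5 to 120.4) in endothelial nuclei, 102 CPM (range 83.7 to 116) in astrocytes and 101 CPM (range 70.8 to 119) in fibroblasts. Among neurons it was 100.1 CPM (range 81.4 to 125) in granule neurons but 44.9 CPM (range 41.4 to 51) in glutamatergic and 40.4 CPM (range 36.3 to 43.9) in GABAergic nuclei, and these ranges did not overlap that of granule neurons. No neighbours in the order of the 12 classes were separated by their ranges, and the highest and lowest means of the 9 larger classes differed by a factor of 2.73. The share of Epas1 in the summed UMIs of both genes sets the classes apart within a library, without comparing the genes' absolute levels. It was 80.7% (95% interval 76.2% to 84.6%; libraries 73.8% to 86.1%) in endothelial nuclei, 57% (95% interval 53.4% to 60.6%; libraries 47.8% to 61.4%) in astrocytes, 39.2% (95% interval 33.8% to 44.7%; libraries 35.9% to 43.6%) in OPC, 13.2% (95% interval 6.49% to 22.9%; libraries 0% to 26.7%) in microglia and 9.24% (95% interval 7.07% to 11.8%; libraries 6.76% to 14.3%) in glutamatergic nuclei. The intervals are exact binomial ones and cover counting error only, here and below.

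**Figure D1:**
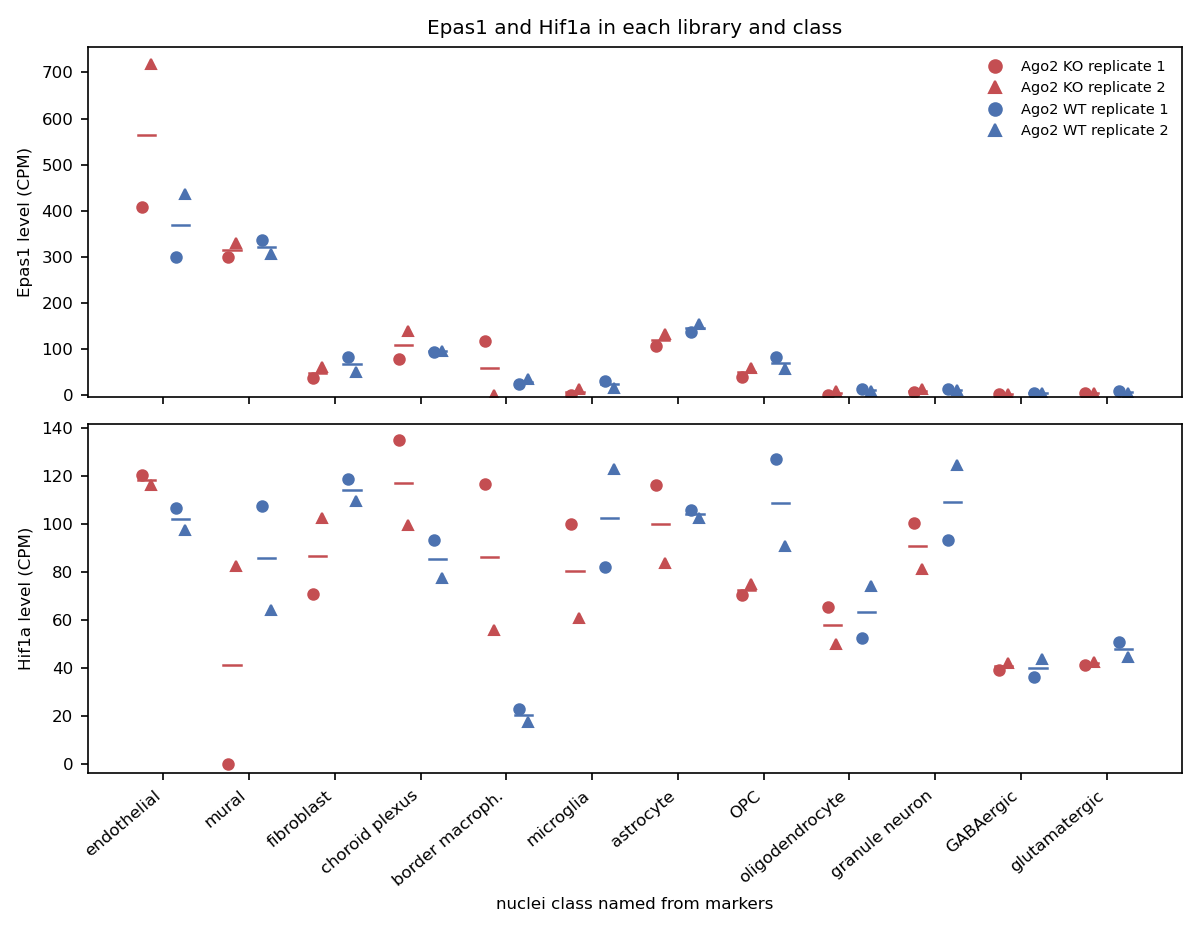
Level of Epas1 (upper panel) and Hif1a (lower panel) in CPM, on linear axes, for each library and class; points are libraries, with KO to the left of WT, and short lines are the mean of the 2 libraries of a group. Endothelial Epas1 sits between 300.3 and 719 CPM and neuronal Epas1 near 0, while Hif1a stays above 0 in all classes but 1 library of mural nuclei.

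The oxygen sensor Egln1 varied least of the members over the 9 larger classes. Its means ran from 35.9 CPM in astrocytes to 58.4 CPM in microglia, a factor of 1.63, and no neighbours in the order were separated. Egln3, the other sensor, was rare. It averaged 12.7 CPM (range 6.86 to 18.1) in fibroblasts, from 18 UMIs, and 7.32 CPM (range 4.84 to 13.1) in astrocytes, from 22 UMIs, and it had no UMI in microglia, where 3 UMIs in a library would have been 11.9 to 22.4 CPM.

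Among the targets, Mxi1 had its highest mean in fibroblasts. Its level was 201 CPM (range 168 to 231) in fibroblasts, above every library of the next class, cerebellar granule neurons, at 122 CPM (range 114 to 136). Of the other classes the small choroid plexus overlapped fibroblasts, with 108 CPM (range 53.6 to 169). Within the fibroblast class it was higher in cluster 12, at 255 and 209 CPM in KO libraries, against 234 and 245 CPM in WT libraries, than in cluster 24, at 99.2 and 96 CPM in KO libraries, against 86.2 and 48.7 CPM in WT libraries. The unnamed cluster 22, of 100 nuclei, held still more, at 414 and 324 CPM in KO libraries, against 304 and 337 CPM in WT libraries. Glutamatergic nuclei were lowest at 37.9 CPM (range 29.3 to 47.5), and OPC lay above oligodendrocytes with no overlap.

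P4ha1 differed between kinds of neuron. Glutamatergic cluster 8 had 123 and 148 CPM in KO libraries, against 130.1 and 145 CPM in WT libraries, and glutamatergic cluster 1 had 60.1 and 63.8 CPM in KO libraries, against 66.4 and 69.8 CPM in WT libraries. GABAergic cluster 10, led by the striatal genes Drd2 and Adora2a, had 80.4 and 145 CPM in KO libraries, against 118 and 123 CPM in WT libraries, while cluster 16, led by the interneuron genes Lhx6, Sst and Npy, had 23 and 49.4 CPM in KO libraries, against 20.5 and 40.7 CPM in WT libraries. In both pairs every library of the first cluster lay above every library of the second. Across classes P4ha1 was 131 CPM (range 78.7 to 186) in microglia and 35.8 CPM (range 29.4 to 49.5) in granule neurons.

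Among the 9 larger classes Pfkfb4 was highest in astrocytes and lowest in endothelial nuclei. It averaged 60.05 CPM (range 32.3 to 82.2) in astrocytes and 39.1 CPM (range 32.7 to 49.8) in glutamatergic nuclei, but 10.9 CPM (range 0 to 23.2) in endothelial nuclei, where the KO libraries held 0 and 0 UMIs and the WT libraries 4 and 5. In the small classes it averaged 74.2 CPM (range 0 to 139) in border macrophages, from 14 UMIs, and 41.9 CPM (range 0 to 99.6) in mural nuclei, from 5 UMIs. Bnip3l averaged 69.3 CPM (range 14.5 to 111) in endothelial nuclei and 46.3 CPM (range 33.6 to 57.2) in fibroblasts, and between 19.1 and 26.6 CPM in neurons, astrocytes, microglia, OPC and oligodendrocytes. The glycolytic genes were low in nuclei. Pgk1 averaged 9.23 CPM in glutamatergic nuclei and 22.2 CPM in endothelial nuclei with overlapping neighbours throughout. Ldha averaged 42.7 CPM (range 27.8 to 55.7) in endothelial nuclei and 10.4 CPM (range 6.53 to 15.5) in oligodendrocytes. Both genes have processed copies elsewhere in the mouse genome, and how reads shared with such copies were counted was not given in the sources used here.

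**Figure D2:**
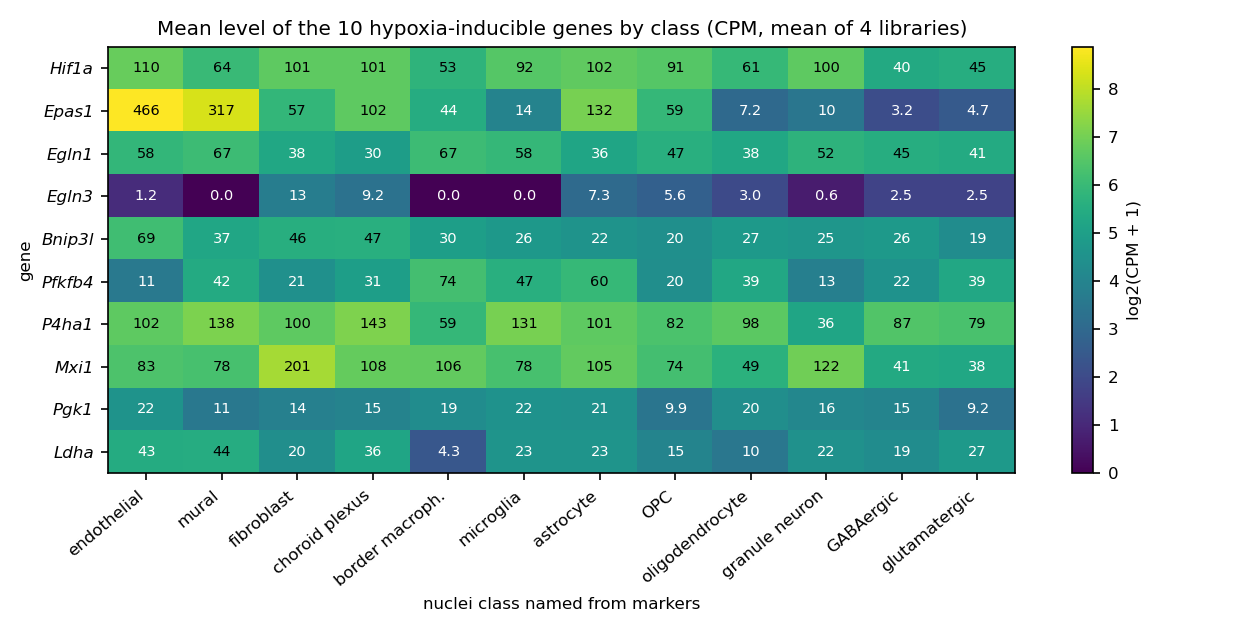
Mean level over the 4 libraries of each gene (rows) in each class (columns); numbers are CPM and the colour is log2(CPM + 1). Epas1 is brightest in endothelial and mural nuclei, Mxi1 in fibroblasts, and Egln3 is dark in every class.

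For each member the 2 genes most like it over the 12 classes were found by Pearson's r of the mean log2(CPM + 1), among 10265 genes averaging at least 10 CPM. These correlations are descriptions, since the classes share libraries, differ in depth, and are few. For Epas1 they were Rhoj (0.928) and Wwtr1 (0.899). Hif1a was most like Fancm (0.938) and Lin7c (0.933), Egln1 like Slc44a2 (0.91) and Gopc (0.905), and Egln3 like Col16a1 (0.952) and Eya1 (0.892). Bnip3l was most like Gpx4 (0.926) and Lsr (0.922), Pfkfb4 like Tcf25 (0.84) and 8030453O22Rik (0.816), and P4ha1 like Disp1 (0.888) and Pgap2 (0.869). Mxi1 was most like Ncor1 (0.891) and Tut4 (0.841), Pgk1 like Cpsf2 (0.945) and Map2k7 (0.923), and Ldha like Ago2 (0.965) and Ift20 (0.953). Among the members, Hif1a and Pgk1 were the most alike pair (r = 0.735) and Bnip3l and Pfkfb4 the least (r = -0.566). Over 25 clusters the levels of Bnip3l, Pgk1 and Epas1 also went with the ribosomal protein share of UMIs (r = 0.751, 0.676 and 0.566). For the other members r ran from -0.095 (Pfkfb4) to 0.419 (Ldha). That share was 1.54% in the shallow unnamed cluster 13 and next highest, at 0.62%, in the endothelial cluster 18. Its part in the endothelial levels was not tested.

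Between the genotypes, no member passed the threshold of an adjusted p of 0.05 in any of the 9 classes with enough nuclei, nor in all nuclei together (edgeR quasi-likelihood test on summed counts, adjusted over all genes of the class). Of 61 pairs of member and class that could be tested, 19 had positive and 42 had negative log2 changes, KO over WT, and 3 had an unadjusted p under 0.05: Pfkfb4 and Bnip3l in astrocytes and P4ha1 in microglia. The classes come from the same libraries, so a shift of a whole library can recur in each of them and the pairs are not independent. The share of all genes past the adjusted threshold was 0.12% in astrocytes, 0.344% in OPC, 0.072% in oligodendrocytes, 0.028% in microglia, 0.0109% in granule neurons, 0.00907% in glutamatergic nuclei and 0% in GABAergic, endothelial and fibroblast nuclei and in all nuclei. A count of 0 among 10 members is close to these shares. With 2 libraries against 2, an exact permutation test cannot give a two-sided p under 0.333. DESeq2 called 0 members as well.

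In all nuclei together, 8 of 10 members had negative changes, with a median of -0.14 against -0.01 for all 17030 genes, and 0 had an unadjusted p under 0.05, against 5.97% of all genes. Without KO replicate 1 the changes were positive for 5 of the 10 and the median was -0.05; without WT replicate 2 the median was -0.08. Hif1a was at 68 and 57.8 CPM in KO libraries, against 67.3 and 67.7 CPM in WT libraries, so that the groups overlapped, with a log2 change of -0.13 (SE 0.13, unadjusted p 0.348, adjusted p 0.999). The largest change in either direction was that of Egln3, at 2.95 and 3.09 CPM in KO libraries, against 2.66 and 2.20 CPM in WT libraries, with a log2 change of 0.31 (SE 0.32, unadjusted p 0.363, adjusted p 0.999). Bnip3l was at 23.1 and 21.2 CPM in KO libraries, against 27.8 and 24.1 CPM in WT libraries, and its log2 change was -0.25 (SE 0.15, unadjusted p 0.146, adjusted p 0.995). KO and WT libraries did not overlap for 4 of the 10 members (Bnip3l, Pgk1 and Ldha with KO below, Egln3 with KO above), while among all genes KO lay below WT without overlap for 14.6% and above it for 18.5%. Since unlike numbers of nuclei of each class entered these sums, fewer cells of a type and less RNA per cell cannot be told apart in them.

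In glutamatergic nuclei the members lay on both sides of 0. Of 8 tested, 4 had positive and 4 negative changes, with a median of 0.01 against -0.01 for all genes, and 0 had an unadjusted p under 0.05, against 5.28% of all genes. The median ranged from -0.26 without KO replicate 2 to 0.21 without WT replicate 2. Hif1a was at 41.4 and 42.7 CPM in KO libraries, against 51 and 44.6 CPM in WT libraries, with KO below WT and a log2 change of -0.22 (SE 0.19, unadjusted p 0.284, adjusted p 0.988). Pfkfb4 was at 49.8 and 38.9 CPM in KO libraries, against 35 and 32.7 CPM in WT libraries; KO lay above WT without overlap, and the log2 change was 0.34 (SE 0.20, unadjusted p 0.118, adjusted p 0.967). Ldha was at 22.2 and 26.5 CPM in KO libraries, against 29.8 and 28.6 CPM in WT libraries, with KO below WT and a log2 change of -0.30 (SE 0.23, unadjusted p 0.227, adjusted p 0.982). Non-overlap with KO above WT held for 19.8% of all genes in this class, and with KO below WT for 13.7%. The larger cluster of this class, cluster 1, held little of the driver gene Slc17a6, at 22.2 and 22.4 CPM in KO libraries, against 19.2 and 11.4 CPM in WT libraries. The unnamed cluster 17, of 1600 nuclei, held more Slc17a6, at 95.2 and 73.2 CPM in KO libraries, against 61.04 and 60.8 CPM in WT libraries, and was compared as well, a choice made after its values were seen. There 5 of 9 members were positive and 4 negative with a median of 0.01, and 0 passed, as did 0% of all 12536 genes. No member had an unadjusted p under 0.05 there, against 3.87% of all genes. Its log2 changes ran from -0.28 for Epas1 to 0.26 for Pfkfb4.

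**Figure D3:**
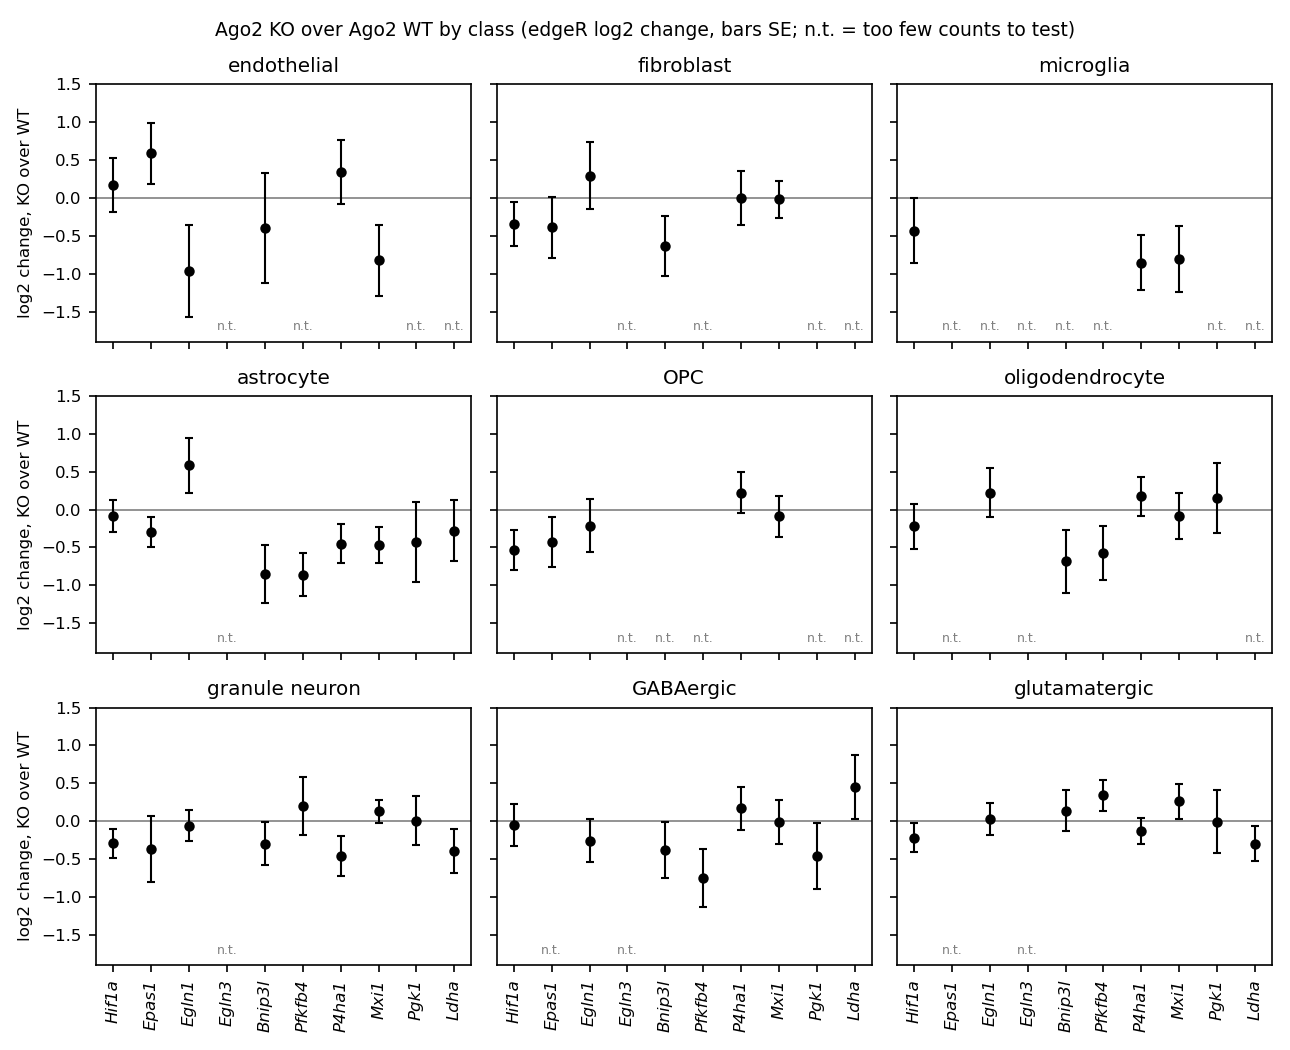
Log2 change of each member, KO over WT, in the 9 classes compared (points, edgeR estimate; bars, SE; n.t., too few counts to test). In astrocytes 8 of 9 points lie below 0 and only Egln1 lies above it, while in glutamatergic nuclei 4 lie on each side.

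In astrocytes most members were lower in KO, without any call. Of 9 members tested 8 had negative changes, with a median of -0.43 against -0.01 for all 8314 genes, and 2 had an unadjusted p under 0.05, against 7.97% of all genes. Pfkfb4 was at 32.3 and 54.1 CPM in KO libraries, against 71.5 and 82.2 CPM in WT libraries. Both KO libraries were below both WT libraries, and the log2 change was -0.86 (SE 0.29, unadjusted p 0.0107, adjusted p 0.364). Bnip3l was at 17.8 and 14.8 CPM in KO libraries, against 25.6 and 31.8 CPM in WT libraries, from 11 and 9 UMIs in KO, against 20 and 36 UMIs in WT. Its groups did not overlap either, and the log2 change was -0.85 (SE 0.39, unadjusted p 0.0459, adjusted p 0.61).

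Epas1, of which astrocytes held more than neurons, was at 107 and 133 CPM in KO libraries, against 135 and 154 CPM in WT libraries. KO lay below WT, with a log2 change of -0.30 (SE 0.20, unadjusted p 0.149, adjusted p 0.782). KO lay below WT without overlap for 17.8% of all genes in this class. Mxi1 was at 74.3 and 105 CPM in KO libraries, against 103 and 138 CPM in WT libraries, overlapping between the groups, and its log2 change was -0.47 (SE 0.23, unadjusted p 0.0671, adjusted p 0.679). P4ha1 was at 67.8 and 105 CPM in KO libraries, against 93.3 and 136 CPM in WT libraries, and Pgk1 at 6.46 and 29.5 CPM in KO libraries, against 29.4 and 19.4 CPM in WT libraries. Their log2 changes were -0.45 and -0.43, with KO replicate 1 the lowest of the 4 libraries for both. Egln1 was the 1 member with a positive change, at 53.3 and 34.5 CPM in KO libraries, against 20.4 and 35.4 CPM in WT libraries, with overlapping groups and a log2 change of 0.59 (SE 0.36, unadjusted p 0.13, adjusted p 0.78). Leaving out KO replicate 1 brought the change of Pfkfb4 to -0.52 and leaving out KO replicate 2 brought it to -1.29, so that its size rested on KO replicate 1. With doublets kept the change of Bnip3l was -0.46. Leaving out 1 library at a time, the median of the members ranged from -0.74 without KO replicate 2, where 5 of 9 had an unadjusted p under 0.05, to -0.15 without KO replicate 1, where 4 of 10 were positive and 0 had such a p. It was -0.19 without WT replicate 2. In each such fit the lone library is assumed to vary like the others.

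Other RNA moved with genotype in the same astrocytes. The summed level of 15 oligodendrocyte markers, all detected, was 534 and 1409 CPM in KO libraries, against 4894 and 1823 CPM in WT libraries. The ribosomal protein share of UMIs was 0.13% and 0.188% in KO libraries, against 0.411% and 0.235% in WT libraries, and the mitochondrial share 0.366% and 0.529% in KO libraries, against 1.63% and 0.57% in WT libraries. KO lay below WT in each, and WT replicate 1 stood apart as the highest. Without WT replicate 1 the log2 changes were -0.96 for Pfkfb4 and -0.99 for Bnip3l. The oligodendrocyte markers and both shares were lower in KO than in WT replicate 2 as well. The summed level of 10 astrocyte markers was 12587 and 13093 CPM in KO libraries, against 13446 and 13842 CPM in WT libraries. The part of the other RNA in the members' values was not tested.

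**Figure D4:**
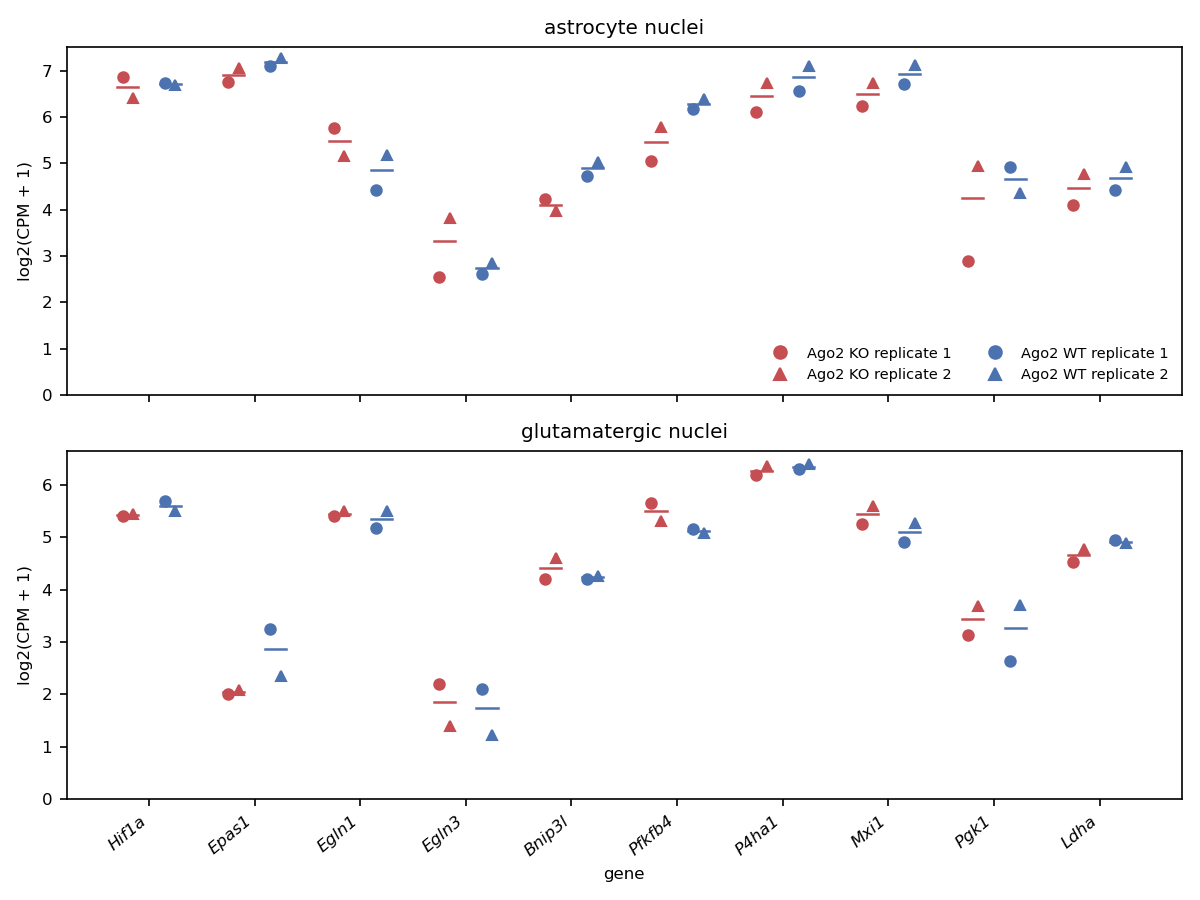
Level of the 10 members in astrocytes (upper panel) and glutamatergic nuclei (lower panel) as log2(CPM + 1); points are libraries, with KO left of WT, and short lines mark the mean CPM of the 2 libraries. Pfkfb4 in KO lies below WT in astrocytes and above WT in glutamatergic nuclei.

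Whether the genotype effect differed between classes was tested directly, as the change in another class minus the change in glutamatergic nuclei with the library as a block. No member passed for any of the 8 classes set against glutamatergic nuclei. The share of all genes past the threshold was 0.178% for astrocytes, 0.604% for GABAergic nuclei, 0.161% for OPC, 0.0843% for oligodendrocytes, 0.0606% for fibroblasts and 0% for granule neurons, endothelial nuclei and microglia. The smallest p was that of Pfkfb4 in astrocytes, with a difference of -1.20 on the log2 scale (SE 0.33, unadjusted p 0.000392, adjusted p 0.121). Without KO replicate 2 it passed, at -1.74 (adjusted p 0.0118), and without the other libraries in turn it did not (adjusted p 0.343 to 0.839). Pfkfb4 in GABAergic nuclei had a difference of -1.13 (SE 0.38, adjusted p 0.228), from 15.9 and 19.1 CPM in KO libraries, against 20.5 and 33.2 CPM in WT libraries. Of that class, cluster 16 held 31% and 20.5% in KO libraries, against 36.9% and 41.2% in WT libraries, and within it the groups overlapped in Pfkfb4, at 9.21 and 37 CPM in KO libraries, against 16.4 and 41.6 CPM in WT libraries. In cluster 10 Pfkfb4 was at 19 and 14 CPM in KO libraries, against 23.1 and 24.9 CPM in WT libraries, with KO below WT. The part of the make-up was not tested. Mxi1 in astrocytes differed by -0.73 (SE 0.27, adjusted p 0.535).

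In endothelial nuclei 3 of 6 tested members had positive and 3 negative changes, with a median of -0.11 against -0.02 for all genes, and 0 had an unadjusted p under 0.05, against 4.37% of all genes. The median ranged from -0.40 without KO replicate 1 to 0.09 without WT replicate 2, and was 0.17 with doublets kept. Epas1 was at 407 and 719 CPM in KO libraries, against 300.3 and 436 CPM in WT libraries. The groups overlapped, KO replicate 2 was the highest, and the log2 change was 0.59 (SE 0.40, unadjusted p 0.18, adjusted p 0.995). Without KO replicate 2 it was 0.13, and without KO replicate 1 it was 0.98. Egln1 was at 18.5 and 58.1 CPM in KO libraries, against 66.2 and 88.2 CPM in WT libraries, from 2 and 8 UMIs in KO, against 13 and 19 UMIs in WT. Its groups did not overlap, with a log2 change of -0.97 (SE 0.61, unadjusted p 0.15, adjusted p 0.995). Without KO replicate 2 that change was -2.03, and without KO replicate 1 it was -0.40. Mxi1 was at 55.6 and 65.4 CPM in KO libraries, against 76.4 and 135 CPM in WT libraries, with KO below WT and a log2 change of -0.82 (SE 0.46, unadjusted p 0.114, adjusted p 0.995). Hif1a was at 120.4 and 116 CPM in KO libraries, against 107 and 97.5 CPM in WT libraries, with KO above WT and a log2 change of 0.17 (SE 0.36, unadjusted p 0.637, adjusted p 0.997). Among all genes of this class KO lay below WT without overlap for 15.5% and above it for 17.4%. Bnip3l was at 111 and 14.5 CPM in KO libraries, against 86.5 and 65 CPM in WT libraries, with overlapping groups and a log2 change of -0.40 (SE 0.73, unadjusted p 0.598, adjusted p 0.997) that was 0.54 without KO replicate 2. These nuclei numbered 46 and 52 in KO, against 82 and 64 in WT. Blood markers in them summed to 1639 and 349 CPM in KO libraries, against 259.6 and 752 CPM in WT libraries, all 5 detected, and stood apart in KO replicate 1, whose part in these values was not tested. The 14 endothelial markers, all detected, summed to 11417 and 15267 CPM in KO libraries, against 8572.5 and 10961 CPM in WT libraries. KO lay above WT in them, with KO replicate 2 the highest, and their part in the members' values was not tested.

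Microglia had counts enough for 3 members, and all 3 had negative changes, with a median of -0.81 against 0.01 for all genes. With 4 members tested, 1 was positive and the median was -0.39 without WT replicate 2, -0.50 without KO replicate 2, -0.65 without WT replicate 1 and -0.40 with doublets kept. P4ha1 was at 78.7 and 109 CPM in KO libraries, against 149 and 186 CPM in WT libraries, with no overlap and a log2 change of -0.86 (SE 0.37, unadjusted p 0.0364, adjusted p 0.721). An unadjusted p under 0.05 was reached by 6.91% of all genes in this class. Mxi1 was at 57.3 and 54.6 CPM in KO libraries, against 112 and 87.2 CPM in WT libraries, with no overlap and a log2 change of -0.81 (SE 0.44, unadjusted p 0.087, adjusted p 0.814). Hif1a was at 100.2 and 60.7 CPM in KO libraries, against 82.2 and 123 CPM in WT libraries, where the groups overlapped. KO lay below WT without overlap for 16.7% of all genes. The oligodendrocyte markers, 15 of 15 detected, summed to 437 and 868 CPM in KO libraries, against 1239.9 and 1201 CPM in WT libraries in microglia, and the 14 microglia markers to 9063 and 6133 CPM in KO libraries, against 8456 and 7985 CPM in WT libraries.

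In OPC 5 members were tested, of which 4 had negative changes, with a median of -0.21 and no unadjusted p under 0.05, against 6.37% of all genes. The median ranged from -0.42 without WT replicate 2 to -0.07 without KO replicate 1, where 4 of 8 were positive. Hif1a was at 70.3 and 75.1 CPM in KO libraries, against 127 and 91 CPM in WT libraries, with KO below WT and a log2 change of -0.53 (SE 0.27, unadjusted p 0.0565, adjusted p 0.806). Non-overlap with KO below WT held for 17.9% of all genes in OPC. The cycling cluster 20 held 1.53% and 1.17% in KO libraries, against 5.36% and 12.1% in WT libraries, of the OPC. The 6 cycling markers, all detected, summed to 89.98 and 48.4 CPM in KO libraries, against 199.98 and 359.9 CPM in WT libraries, and the 15 oligodendrocyte markers, all detected, to 1024 and 928 CPM in KO libraries, against 1639.9 and 1341 CPM in WT libraries. Within cluster 19, the rest of the class, Hif1a was at 72 and 76 CPM in KO libraries, against 129 and 93.2 CPM in WT libraries, so that KO lay below WT there too. The part of this make-up and of oligodendrocyte RNA in the OPC values was not tested. In oligodendrocytes 4 of 7 members were negative (median -0.09), and 0 had an unadjusted p under 0.05, against 5.54% of all genes. The median ranged from -0.23 without KO replicate 2 to 0.11 without WT replicate 2. Bnip3l was at 20.9 and 19.6 CPM in KO libraries, against 37.2 and 28.5 CPM in WT libraries, with a log2 change of -0.68 (SE 0.42, unadjusted p 0.125, adjusted p 0.927), and Pfkfb4 at 28.8 and 32.7 CPM in KO libraries, against 55.7 and 38.2 CPM in WT libraries, with a log2 change of -0.57 (SE 0.36, unadjusted p 0.133, adjusted p 0.935). Both lay lower in KO without overlap, as did 15.6% of all genes there.

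Granule neurons had 6 of 9 members negative (median -0.29), fibroblasts 4 of 6 (median -0.18) and GABAergic nuclei 6 of 8 (median -0.16), with medians of all genes between -0.01 and 0.01 and no member at an unadjusted p under 0.05. Leaving out 1 library, the median in granule neurons ranged from -0.24 without WT replicate 1 to -0.09 without KO replicate 2. That in fibroblasts ranged from -0.68 without KO replicate 2 to 0.03 without WT replicate 2, where 4 of 7 were positive, and that in GABAergic nuclei from -0.25 to -0.10. The share of all genes with such a p was 6.13% in granule neurons, 5.8% in fibroblasts and 6.06% in GABAergic nuclei. P4ha1 in granule neurons was at 29.5 and 29.4 CPM in KO libraries, against 49.5 and 34.8 CPM in WT libraries, with a log2 change of -0.46 (SE 0.27, unadjusted p 0.116, adjusted p 0.891). Bnip3l in fibroblasts was at 33.6 and 37.8 CPM in KO libraries, against 56.8 and 57.2 CPM in WT libraries, with a log2 change of -0.63 (SE 0.40, unadjusted p 0.134, adjusted p 0.936). Neither pair of groups overlapped, which held with KO below WT for 18.6% of all genes in granule neurons and 18.7% in fibroblasts. Hif1a had negative changes in 8 of the 9 classes, the smallest p being in OPC, and positive in endothelial nuclei. Bnip3l was negative in 6 of 7 classes and Mxi1 in 7 of 9, whereas P4ha1 was positive in 5 of 9 and Egln1 in 4 of 8. The classes come from the same libraries, so these signs are not independent of each other. Mxi1 changed sign under some alternative in GABAergic (-0.006), OPC (-0.09), fibroblast (-0.02) and oligodendrocyte nuclei (-0.09). Hif1a did so in GABAergic, astrocyte, endothelial and oligodendrocyte nuclei. Egln3 could be tested in none of the classes.

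Other genes of the hypoxia pathway were read from a list of 65, made of subunits and sensors, glycolysis and glucose entry, mitophagy and survival, matrix processing, and vessels, iron and chromatin. Only 1 passed in any class: Hif3a, an alpha subunit whose products can restrain the others. It passed in oligodendrocytes and OPC, with KO above WT, and was higher in KO in further classes without passing. In oligodendrocytes it was at 99.5 and 82.8 CPM in KO libraries, against 3.10 and 2.09 CPM in WT libraries, from 38 and 38 UMIs in KO, against 2 and 3 UMIs in WT. The ratio of the summed counts was 37.7 (exact 95% interval 15.5 to 119), and the log2 change 5.11 (SE 0.45, adjusted p 0.000167). In OPC it was at 53.4 and 29.1 CPM in KO libraries, against 11.8 and 3.14 CPM in WT libraries, with a log2 change of 2.72 (SE 0.61, adjusted p 0.0458). The call in oligodendrocytes held under all 11 alternatives tried, and that in OPC was lost under 9 of 11, for example without KO replicate 1 (adjusted p 0.946) and by DESeq2 (adjusted p 0.999). Among the 9 classes compared Hif3a was highest in astrocytes, at 337 and 236 CPM in KO libraries, against 175 and 212 CPM in WT libraries. KO lay above WT there without passing (log2 change 0.54, adjusted p 0.42, edgeR). It did so too in granule neurons (adjusted p 0.867, edgeR) and fibroblasts (adjusted p 0.553, edgeR). Fibroblasts had 104 and 122 CPM in KO libraries, against 56.8 and 45.7 CPM in WT libraries. All nuclei had 41.9 and 35.8 CPM in KO libraries, against 24.5 and 16.2 CPM in WT libraries. Among all genes KO lay above WT without overlap for 18.6% in oligodendrocytes, 20% in astrocytes, 15.3% in fibroblasts and 18.5% in all nuclei. Endothelial nuclei had 120.4 and 79.9 CPM in KO libraries, against 15.3 and 9.28 CPM in WT libraries (log2 change 2.91, adjusted p 0.76), and glutamatergic nuclei 15 and 8.64 CPM in KO libraries, against 11.3 and 7.48 CPM in WT libraries (log2 change 0.35, adjusted p 0.988). The difference from glutamatergic nuclei passed for oligodendrocytes, at 4.79 (SE 0.60, adjusted p 1.31e-05), and not for OPC (2.46, adjusted p 0.143) or endothelial nuclei (2.69, adjusted p 1). Oligodendrocyte markers in the oligodendrocyte class summed to 23897 and 21533 CPM in KO libraries, against 20175 and 20353 CPM in WT libraries, with KO above WT. The ribosomal protein share there was 0.139% and 0.152% in KO libraries, against 0.27% and 0.193% in WT libraries. Cluster 23, led by Enpp6 and Bcas1, made up 41.9% and 51.9% of this class in KO libraries, against 52.5% and 49.2% in WT libraries. The part of this make-up in the Hif3a values was not tested. The lists were chosen with earlier results in view, so the rise of Hif3a is no independent finding. Hif3a lies on chromosome 7 of GRCm38 from 17031507 to 17062427, minus strand.

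**Figure D5:**
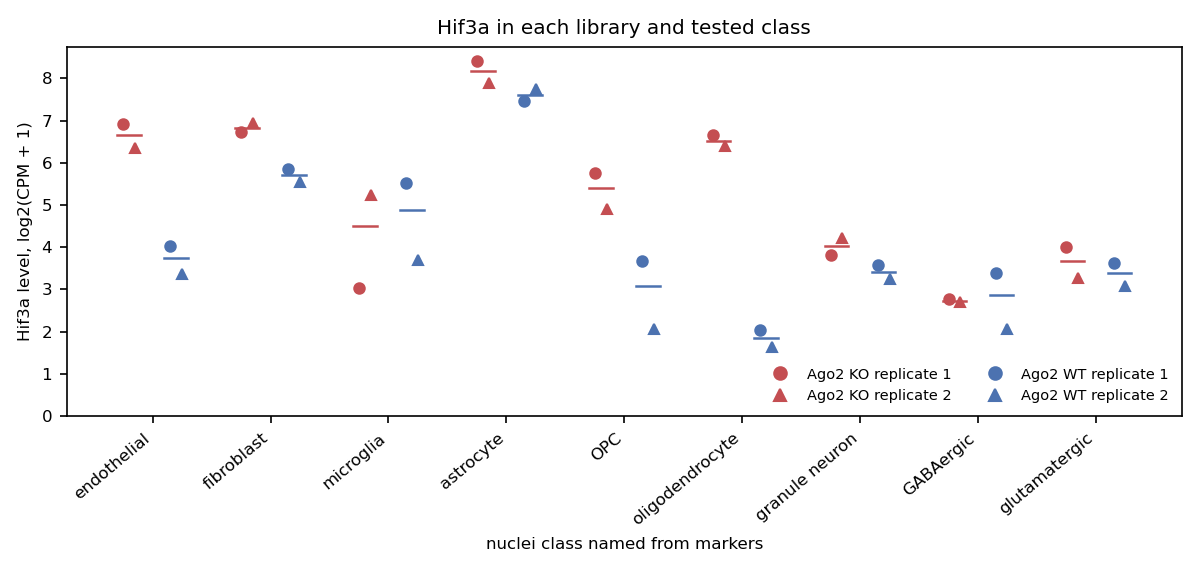
Level of Hif3a as log2(CPM + 1) in each library of the 9 classes compared; points are libraries, with KO left of WT, and short lines mark the mean CPM of the 2 libraries. The groups are far apart in oligodendrocytes, OPC and endothelial nuclei, and near each other in GABAergic and glutamatergic nuclei.

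Of the pathway genes other than Hif3a, 0 passed in either direction. In glutamatergic nuclei 50 of the 65 were tested, 20 with positive and 30 with negative changes (median -0.09, against -0.01 for all genes). Ndrg1 (0.62) and Ero1l (0.56), an oxidase of the endoplasmic reticulum, had the highest log2 changes, and Egln2 (-0.75), the third prolyl hydroxylase, and Loxl2 (-0.71), a lysyl oxidase of the matrix, the lowest. Loxl2 had 0 and 109 UMIs in KO libraries there, against 65 and 422 UMIs in WT libraries, and KO replicate 1 stood apart. The 22 tested genes of glycolysis and glucose entry had 4 positive and 18 negative changes there, with a median of -0.19 and none past the threshold. The same list had 7 of 12 positive in oligodendrocytes (median 0.02), 8 of 20 in astrocytes (median -0.04), 7 of 20 in granule neurons (median -0.06), 6 of 16 in GABAergic nuclei (median -0.05), 5 of 12 in OPC (median -0.17), 3 of 12 in fibroblasts (median -0.28), 2 of 7 in endothelial nuclei (median -0.47), 2 of 3 in microglia (median 0.12) and 11 of 24 in all nuclei (median -0.06). The medians of all genes lay between -0.02 and 0.01. The ribosomal protein share in glutamatergic nuclei was 0.0897% and 0.0849% in KO libraries, against 0.126% and 0.123% in WT libraries. Its part in the values of the glycolysis list was not tested. In astrocytes 17 of 42 were positive, with Jmjd6 at 0.69 and the neuronal-type glucose transporter Slc2a3 at 0.67, and Slc16a1, a lactate transporter, at -1.46 and Pgam1 at -1.13. Slc16a1 in astrocytes was at 6.46 and 19.7 CPM in KO libraries, against 44.7 and 28.3 CPM in WT libraries (adjusted p 0.346). In GABAergic nuclei 10 of 31 were positive, from Slc16a1 (-1.09) and Loxl2 (-0.87) to Ero1l (0.49) and the glycogen enzyme Gbe1 (0.51).

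In endothelial nuclei 7 of 16 were positive. Slc2a1, the glucose transporter of the blood-brain barrier, was at 444 and 494 CPM in KO libraries, against 219 and 259.9 CPM in WT libraries. The groups did not overlap, and its log2 change of 0.94 (SE 0.32, unadjusted p 0.0203) had an adjusted p of 0.995. The summed endothelial markers of this class also lay higher in KO without overlap, and their part in the Slc2a1 values was not tested. The lowest there were Wsb1 (-0.90) and the glycolytic Pkm (-0.86). In oligodendrocytes 16 of 30 were positive, with Slc2a3 at 0.72 after Hif3a, and Loxl2 (-1.46) and the transferrin receptor Tfrc (-1.09) lowest. In OPC 14 of 27 were positive, with Pfkp at 0.27 after Hif3a, and Gpi1 (-0.89) and Tfrc (-0.86) lowest. In microglia 4 of 9 were positive, from Wsb1 (-0.89) and Loxl2 (-0.84) to Pfkp (0.36) and Kdm4b (0.61). In granule neurons 15 of 46 were positive, with a median of -0.15, and 7 had an unadjusted p under 0.05, against 6.13% of all genes. These were Slc16a1, Slc2a1, Gapdh, Pkm, Higd1a, Tfrc and Vegfa, all with negative changes. The ribosomal protein share in this class was 0.0961% and 0.129% in KO libraries, against 0.195% and 0.203% in WT libraries. Its part in these values was not tested. The smallest p there was that of Slc16a1, named after its values were seen, with a log2 change of -1.71 (edgeR, adjusted p 0.612). In fibroblasts 12 of 29 were positive, with a median of -0.16 and 2 at an unadjusted p under 0.05. In all nuclei 27 of 60 were positive, with a median of -0.04, and 8 had an unadjusted p under 0.05, against 5.97% of all genes.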

How the data were processed

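Nuclei of 4 libraries (10x 3′ v3 chemistry) were compared by the genotype in their labels. The deposited files hold raw UMI counts per feature and barcode, made with Cell Ranger 4.0.0 against GRCm38, with Seurat 3.2.3 also named, per the submitters' processing notes; the intron setting and annotation release are not given in the sources used here. The filters were 500 UMIs as the minimum per barcode and a mitochondrial share below 5%, and doublets were removed by Scrublet score at 0.8% per 1000 barcodes, as a fixed share because the automatic threshold marked few. Nuclei were clustered with scanpy 1.11.5 (2000 variable genes without the pathway genes, 30 components, 15 neighbours, Leiden resolution 1.0). A cluster was named for the class with the highest mean log2 fold of its markers over other clusters (at least 0.5), with at least 3 markers detected in at least 10% of nuclei and 2-fold above other clusters. It stayed unnamed where its top 10 genes held at least as many markers of another class, a rule set after seeing the data. Counts were summed per library and class with at least 20 nuclei in each library, and tested with edgeR 4.0.16 (filterByExpr, TMM, quasi-likelihood, Benjamini-Hochberg adjustment over all genes) in R 4.3.3, after a test on simulated data. DESeq2 1.42.0 was an alternative. The members and lists were chosen with earlier results of these data known. Named genes are all members, each pathway gene past the threshold, and the 2 highest and 2 lowest pathway changes in 7 classes.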

Additional observations from a re-analysis of the deposited data

Results flagged for a closer look

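The change of Hif3a in KO over WT libraries differed between classes in a direct test. It was larger in oligodendrocytes than in glutamatergic nuclei by 4.79 on the log2 scale (edgeR quasi-likelihood interaction term with the library as a block, SE 0.60, adjusted p 1.31e-05). Both KO libraries lay above both WT libraries in oligodendrocytes, while the groups overlapped in glutamatergic nuclei. Its counts in oligodendrocytes were 38 and 38 UMIs in KO libraries, against 2 and 3 UMIs in WT libraries, so it met the filter on low counts through the KO libraries. Hif3a is a pathway gene and not 1 of the 10 members. The pathway list was chosen with earlier results of these data known, so this is no independent finding.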

How the results depend on the processing

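No member passed in any class or in all nuclei under any alternative run (DESeq2's size factors, no filter on low counts, DESeq2, the replicate block, each library left out, 10% mitochondrial UMIs, doublets kept, Leiden resolution 2.0). Among tests of a difference from glutamatergic nuclei, leaving out a library gave 0 to 1 members. Of 38 member changes of at least 0.25 within a class or in all nuclei, 5 reversed under some alternative, and of 33 smaller ones 24 changed sign. With a library left out, Pgk1 in astrocytes ranged from -1.887 (without KO replicate 2) to 0.302 (without KO replicate 1), and Ldha in astrocytes from -0.675 to 0.042, with 0.034 without WT replicate 2. Epas1 in granule neurons ranged from -0.894 to 0.072, Bnip3l in endothelial nuclei from -2.313 to 0.540, and P4ha1 there from -0.114 to 0.708, or -0.015 at 10% mitochondrial UMIs. Genes called moved more: 10 in astrocytes (8 to 130), 21 in OPC (1 to 47), 5 in oligodendrocytes (1 to 106), 1 in glutamatergic nuclei (0 to 65), 1 in granule neurons (0 to 313), 1 in microglia (0 to 56) and 0 in GABAergic (up to 75), endothelial (up to 33), fibroblast (up to 76) and all nuclei (up to 135). The causes were not tested.

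Replicate numbers did not pair the libraries (correlations of deviations from -0.124 to 0.123). With the replicate block 0 members passed, Pfkfb4 in astrocytes stayed at -0.86 (adjusted p 0.22, edgeR), Hif3a in OPC lost its call (adjusted p 0.278), and astrocytes had 67 genes called. The block could not be added to the interaction fit, which already has the library as a block, and resolution 2.0 leaves all nuclei as they are. Depth limits most member values: endothelial nuclei and microglia had under 10 UMIs in a library for several members.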

Other observations

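Loxl2, a lysyl oxidase of the pathway list on chromosome 14, was almost missing from 1 library. Over all nuclei it had 34 UMIs in KO replicate 1 and 580 in KO replicate 2, against 357 in WT replicate 1 and 1296 in WT replicate 2, or 3.34 and 56 CPM in KO libraries, against 33.9 and 49.96 CPM in WT libraries. In glutamatergic nuclei it was at 0 and 58.9 CPM in KO libraries, against 30.7 and 61.9 CPM in WT libraries. In microglia it was at 0 and 213 CPM in KO libraries, against 157 and 234 CPM in WT libraries. Fibroblasts differed, at 78.3 and 116 CPM in KO libraries, against 82.6 and 96 CPM in WT libraries, where KO replicate 1 was close to the others and held 21 of its 34 UMIs. KO replicate 2 was within or above the range of the WT libraries in all nuclei and in these 3 classes. In oligodendrocytes KO replicate 2 lay below both WT libraries, at 24 CPM against 31 and 38.2 CPM. Mural nuclei showed the same, at 41.2 CPM from 2 UMIs, against 94.1 and 80.5 CPM. Loxl2 was singled out after its values were seen. It lies from 69609068 to 69695834 of chromosome 14 in GRCm38, and the member nearest to it in position is Bnip3l, at 66985239 to 67008877 of the same chromosome, which was at 23.1 and 21.2 CPM in KO libraries, against 27.8 and 24.1 CPM in WT libraries.

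Of the other unnamed clusters with the driver gene Slc17a6, cluster 21 had 159 and 211 CPM in KO, against 135 and 112 CPM in WT, but fewer than 20 nuclei in KO replicate 1, so no comparison was made. Unnamed cluster 4, of 1363 nuclei, had 62.4 and 55.8 CPM in KO, against 70.6 and 52.7 CPM in WT. Unnamed cluster 14, of 705 nuclei, had 70.5 and 51.9 CPM in KO, against 45.2 and 51 CPM in WT. Clusters 4 and 14 had nuclei enough but were not compared. The CRE feature of the files had 0 UMIs in all libraries.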
